A study of Mus musculus with 17 samples.

Results

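Chromatin accessibility around 4 mouse cytokine genes, Tnf, Lta, Ltb and Il6, was followed through lipopolysaccharide (LPS) stimulation of macrophages with and without the nuclear receptor Nur77. Every ATAC-seq peak within 50 kb of these genes was taken, which gave 453 of the 808470 deposited peak intervals. When the 24389 strongest peaks of each list were merged across lists, 17 of 34155 sites lay in these windows. Because 1 merged site could span a whole gene, neighbouring peak summits were also grouped into narrower summit elements, of which 34 of 43720 lay in the windows. These are named E1 to E31 along chromosome 17 and E32 to E34 along chromosome 5.

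Tnf encodes the inflammatory cytokine TNF, and Lta and Ltb encode the lymphotoxins, which are related ligands best known from lymphocytes. The 3 genes lie side by side in the major histocompatibility complex, whereas Il6, which encodes interleukin 6, lies alone on another chromosome. In macrophages LPS is sensed by Toll-like receptor 4, which activates NF-kB and AP-1 transcription factors, and Tnf and Il6 are among their classical target genes. ATAC-seq uses the Tn5 transposase to insert adapters into open DNA, so a peak marks an accessible promoter or a distal element such as an enhancer.

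The cells were bone marrow-derived macrophages (BMDMs) from male C57Bl6/J mice aged 6 to 12 weeks, grown for 7 days in L929-conditioned medium. Cells of wild-type mice (WT) and of mice lacking Nur77, the product of Nr4a1 (KO), were compared after 0, 1 and 18 h with 100 ng/ml LPS. Each group held 3 samples, except WT at 1 h, which held 2, one of them labelled replicate 1-2. The deletion was made with a CMV-Cre that acts in the whole animal and was later bred out, so it was not limited to macrophages. The genotype label of the KO samples reads cre, and the sample titles were used for grouping. No source used here ties a replicate number to a mouse. In such bulk samples, fewer cells with an open element and less open chromatin per cell cannot be told apart.

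No read counts per region were used. Peaks were therefore ranked by p-value inside each list, rank 1 being the strongest, and a peak that was absent or ranked after 24389 was set to rank 24390. Differences are given in log2 rank, with a positive value for a better rank in the group named first. A site was called only when all lists of one group ranked on the same side of all lists of the other, in both genotypes (LPS) or at all 3 times (KO against WT). Calls were also tested by a two-sided exact permutation, whose p cannot go below 0.005 for an LPS comparison or 0.00025 for KO against WT, with Benjamini-Hochberg adjustment over all sites. A call does not depend on the adjusted p, which is above 0.05 for some calls.

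Depth, as background reads per kb, differed 25.5-fold between lists and moved with the groups. In WT it was 5.11 to 9.75 at 0 h, 0.382 and 1.61 at 1 h and 4.62 to 8.38 at 18 h, and in KO 0.72 to 7.65, 0.593 to 4.14 and 1.1 to 1.76. The calls were therefore repeated after adjustment for depth, and the calls lost were those of E26 at 1 h and of the promoters of Cflar, Jak2, Clcf1 and Pias3 at 1 h and Elavl1 at 18 h against 1 h. KO 18 h replicate 1 stood apart in that its median peak width was 135 bp, against 338 to 661 bp in the other lists, so results in the cytokine windows that it changes are given with and without it. Of 8 macrophage marker promoters (among them Csf1r, Spi1 and Cd14), 7 had a peak among the best 24389 in all 17 lists. Of 25 markers of T cells, B cells, neutrophils, dendritic cells, fibroblasts and erythroid cells, 19 had none in any list. The 6 exceptions were Cd5 (14 lists), Ms4a1 (10), S100a8 (15), Zbtb46 (13), Col1a1 (14) and Pdgfra (1). The Nr4a1 promoter, which drives Nur77, had a peak in all 11 lists of both genotypes at 0 and 1 h. At 18 h it had one in all 3 WT lists, at ranks 23241 to 34955, and in none of the 3 KO lists. Of these WT peaks, only that of replicate 3 was among the best 24389. The KO lists at 18 h were shorter, at 29568 to 36136 intervals against 46364 to 61492 in WT, and the contrast was not tested. A promoter peak does not test a deletion elsewhere in the gene.

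The Tnf gene (mm10, chr17:35199381-35202007, minus strand) had a promoter peak in 17 of 17 lists, and so did Il6 (chr5:30013114-30019981, plus strand). A promoter peak is one with its summit within 1 kb of an annotated start site. Lta (chr17:35203165-35205351, minus strand) had no summit within 1 kb of its start site and none inside the gene in any list, at any rank. Ltb (chr17:35194439-35196320, plus strand) had no promoter summit either, although all 17 lists held a peak inside the gene. Of the 4 cytokine genes, the promoter results therefore concern Tnf and Il6.

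Stretches of reference sequence from 3 places are shown because the LPS results turn on them. They are the 250 bases before the Tnf and Il6 start sites and 201 bases around the summit of E21, the intergenic element upstream of Tnf that moved most. Letters in capitals match a motif for AP-1 (TGACTCA or TGAGTCA), C/EBP (TTACNNAA or TTGCNNAA) or NF-kB on either strand. The promoters are the RefSeq sequences of build GRCm38.p6, shown in the direction of transcription, and E21 is shown on the plus strand of the same build.
Tnf promoter, chr17:35202008-35202257: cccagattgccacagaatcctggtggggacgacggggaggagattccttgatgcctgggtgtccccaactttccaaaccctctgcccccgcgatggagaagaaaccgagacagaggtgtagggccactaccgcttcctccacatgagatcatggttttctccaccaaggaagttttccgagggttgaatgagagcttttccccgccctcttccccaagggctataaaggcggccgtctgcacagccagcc
Il6 promoter, chr5:30012864-30013113: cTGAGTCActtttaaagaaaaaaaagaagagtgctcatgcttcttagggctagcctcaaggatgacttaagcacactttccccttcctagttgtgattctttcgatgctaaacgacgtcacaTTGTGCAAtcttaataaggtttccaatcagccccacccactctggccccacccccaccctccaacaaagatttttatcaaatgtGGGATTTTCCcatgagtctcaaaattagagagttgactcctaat
E21, chr17:35210243-35210443: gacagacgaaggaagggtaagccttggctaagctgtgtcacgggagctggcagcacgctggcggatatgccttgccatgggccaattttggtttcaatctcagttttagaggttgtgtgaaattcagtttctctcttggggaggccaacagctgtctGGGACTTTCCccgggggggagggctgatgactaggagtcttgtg

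The Il6 promoter held an AP-1 match from −249 to −243, a C/EBP match from −128 to −121 and an NF-kB match from −44 to −35, counted from the start site. The Tnf promoter stretch held no match to these 3 motifs, which says only that these letters are not in this window. E21 held an NF-kB match 57 to 66 bases after its summit. Within 100 bp of the summit, an NF-kB match was found in 4.97% of all 43720 elements, an AP-1 match in 14.5% and a C/EBP match in 16.3%. Among the 34 elements of the cytokine windows, these matches were found in 3, 3 and 5 elements. In the 250 bases upstream of 32851 RefSeq promoters, the shares were 3.90%, 4.46% and 16.5%. Of the 10 elements called better ranked at 1 h, 2 held an AP-1, 2 an NF-kB and 3 a C/EBP match. The NBRE (AAAGGTCA), the monomer motif of Nur77, was found in none of the 34 elements and in 0.997% of all elements.

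The Tnf promoter became far more prominent 1 h after LPS and fell back in part by 18 h. In WT it ranked 5246, 4583 and 4449 at 0 h, 596 and 435 at 1 h, and 2300, 2328 and 1239 at 18 h. In KO it ranked 5584, 7396 and 4535 at 0 h, 362, 602 and 406 at 1 h, and 7299, 2803 and 3066 at 18 h. All 5 lists at 1 h were ahead of all 6 at 0 h. The gain in log2 rank came to 3.45, with 3.22 in WT and 3.68 in KO (two-sided exact permutation p = 0.005, adjusted p = 0.032 over all 11182 gene promoters). This was the 10th largest gain among them, and 3.31% of all promoters were called better ranked.

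At 18 h the Tnf promoter was ranked behind the 1 h lists in both genotypes, by −2.52 (exact permutation p = 0.005, adjusted p = 0.0575). Against 0 h it was 0.93 better (1.34 in WT, 0.53 in KO, exact permutation p = 0.015, adjusted p = 0.0905), and it was not called because KO 18 h replicate 1, at rank 7299, overlapped the KO 0 h lists. Without that list the difference was 1.15 and the groups no longer overlapped. The reads at the summit divided by the list's background gave another scale. On it the geometric means were 166, 402 and 137 in WT and 151, 378 and 133 in KO at 0, 1 and 18 h. The 18 h values were therefore not above those at 0 h, a difference of −0.24 in log2 (exact permutation p = 0.06), whereas it was 0.45 once each list was centred on the sites shared by all lists (exact permutation p = 0.015).

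The Il6 promoter ranked behind the Tnf promoter in 17 of 17 lists, and it was called better ranked at both 1 h and 18 h. In WT it ranked 19028.5, 15939 and 16052 at 0 h, 8263 and 4213 at 1 h, and 8497, 6722 and 8238 at 18 h. In KO it ranked 17490, 16941 and 22922 at 0 h, 8719, 6174 and 3703 at 1 h, and 11542, 10733 and 5703 at 18 h. The lists at 1 h and at 18 h lay ahead of every 0 h list of the same genotype. The difference was 1.61 at 1 h (exact permutation p = 0.005, adjusted p = 0.032) and 1.11 at 18 h (exact permutation p = 0.005, adjusted p = 0.0472). Between 18 h and 1 h it was −0.50, and the groups overlapped (exact permutation p = 0.13, and −0.75 with p = 0.0375 without WT 1 h replicate 1-2). With only the 10000 best peaks kept, the 18 h difference was 0.32 (exact permutation p = 0.05). Over the reads at the summit divided by background, the geometric means were 58.0, 169 and 67.0 in WT and 53.0, 159 and 83.0 in KO at 0, 1 and 18 h. In KO at 18 h, replicate 1 gave 114 and replicates 2 and 3 gave 58.1 and 86.1. On that scale without centring the 18 h and 0 h lists overlapped in both genotypes, so the 18 h call was lost, with a difference of 0.43 (exact permutation p = 0.025). After centring it was 1.12 (exact permutation p = 0.005).

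**Figure D1:**
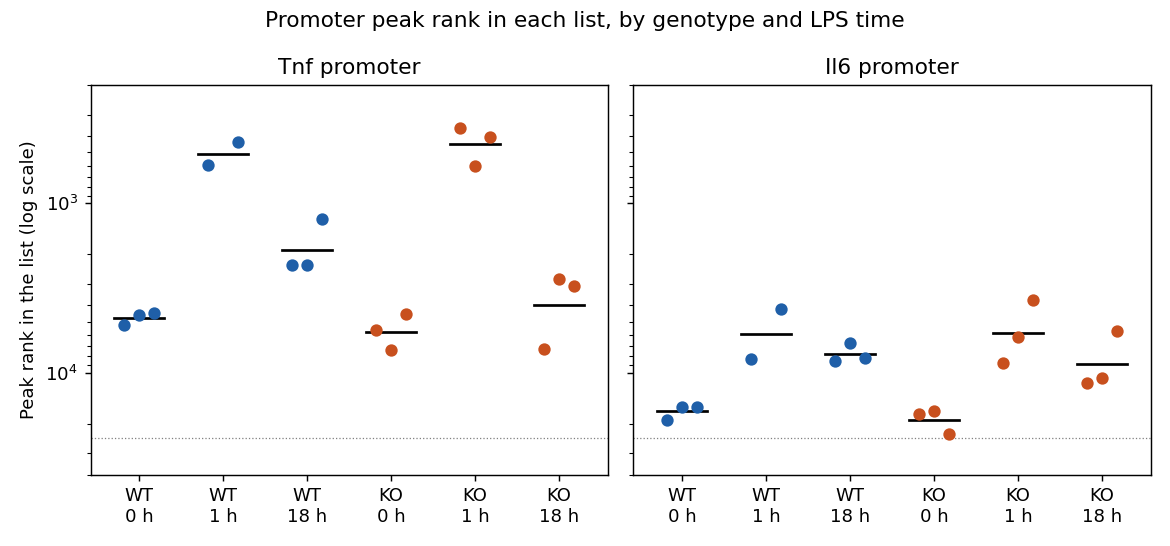
Rank of the best promoter peak of Tnf (left) and Il6 (right) in each of the 17 lists, on a log axis with strong peaks at the top, for WT (blue) and KO (orange) at 0, 1 and 18 h of LPS. Each point is a list, each bar the geometric mean and the dotted line rank 24390. Tnf rises to ranks 362 to 602 at 1 h, and Il6 stays ahead of its 0 h lists at 18 h.

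Loss of Nur77 did not separate the promoters. Over the 3 times, KO differed from WT by −0.39 in log2 rank at Tnf (exact permutation p = 0.14), and by −0.24 without KO 18 h replicate 1. The value was −0.27 before LPS, 0.19 after 1 h and −1.08 after 18 h, and the last was −0.64 without KO 18 h replicate 1. At Il6 KO differed from WT by −0.11 (exact permutation p = 0.592), and by −0.05 without that list. The 1 h LPS response of Tnf was 0.46 larger in KO than in WT (exact permutation p = 0.23), and that of Il6 was 0.17 larger (exact permutation p = 0.745). At 18 h these differences were −0.81 (exact permutation p = 0.35) and −0.04 (exact permutation p = 0.93). Without KO 18 h replicate 1 they were −0.37 and 0.15. These p-values do not show that the genotypes are alike.

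Around Tnf, 6 elements in a row were better ranked at 1 h, from 3.7 kb downstream of the start site (E13) to 636 bp upstream of it (E18). E17 holds the promoter summit, so its values are those given for the promoter. E16, in a coding exon 1449 bp downstream of the start site, was already among the strong peaks at 0 h, at ranks 1602 to 2616 over the 6 lists. At 1 h it ranked 492 and 120 in WT and 1040, 490 and 580 in KO, and the gain was 2.39 (p = 0.005 by exact permutation, 0.0302 after adjustment over 43720 elements). At 18 h it ranked 2650, 2371 and 2764 in WT. In KO it ranked 150 in replicate 1 and 3038 and 3489 in the others, and with all lists the difference between 18 h and 1 h was −2.11 and not called, whereas without replicate 1 it was −2.85 and called.

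At the 3′ end of Tnf, E15 and E14 were outside the best 24389 peaks in every list at 0 h and among them in every list at 1 h. E15, in the Tnf 3′ UTR, had no peak in any of the 6 lists at 0 h. At 1 h it ranked 2228 and 1258 in WT and 2918, 4084 and 2618 in KO, and the gain was 3.41. At 18 h only 2 of 6 lists held it, at ranks 22024 in KO and 28850 in WT, so the difference between 18 h and 1 h was −3.38. E13, E14, E15, E18 and E22 had no list at 0 h among the best 24389 peaks and were therefore kept only through LPS lists. Their differences from 0 h could not be negative and are given as a description, with no p. A missing summit does not show closed chromatin, since the peak caller can place the summit of a broad peak in a neighbouring element.

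E14, whose best summit lay just beyond the 3′ end of Tnf, was outside the best 24389 peaks in all 6 lists at 0 h. At 1 h it ranked 1164 and 1932 in WT and 3596, 5022 and 4744 in KO, a difference of 3.25. At 18 h it ranked 10354, 11686 and 10700 in WT and 17260, 9784 and 14184 in KO. At 18 h it thus lay between the other times in both genotypes, with a difference of 1.01 from 0 h and of −2.23 from 1 h (exact permutation p = 0.005, adjusted p = 0.0417 for the latter). With only the 10000 best peaks kept, or on reads over background without centring (0.52), the 18 h lists were no longer separated from those at 0 h. At 1 h E13, in the space between Ltb and Tnf, gained 1.06, and E18, 636 bp upstream of the Tnf start site, gained 1.11. E18 was outside the best 24389 in all 6 lists at 0 h and ranked 9462 to 17414 in the WT and 7527 to 11778 in the KO lists at 1 h. By 18 h it ranked behind the 1 h lists again (difference −1.09).

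Farther upstream of Tnf, the intergenic elements E21, E22 and E23 were called better ranked at 1 h. E21 lies 8336 bp upstream of the Tnf start site and 4992 bp upstream of that of Lta, and carries the NF-kB match printed above. In WT it ranked 7888, 7408 and 8224 at 0 h, 2608 and 601 at 1 h, and 2100, 1819 and 867 at 18 h. In KO it ranked 9380 and 8301 and was absent from 1 list at 0 h, ranked 754, 2689 and 1208 at 1 h, and 1748, 1497 and 1092 at 18 h. All 11 LPS lists were ahead of all 6 lists at 0 h. The difference was 2.92 at 1 h (adjusted p = 0.0302) and 2.76 at 18 h (adjusted p = 0.0378, exact permutation p = 0.005 for each), and the latter was the 37th largest gain among 43720 elements at 18 h. The rank set in KO 0 h replicate 3 enlarged these values and that place. At the merged site the differences were 2.68 at 1 h and 2.52 at 18 h. As reads over background, E21 gave 106 to 130 at 0 h, 276 and 349 at 1 h and 137 to 172 at 18 h in WT, and 101 and 117, 240 to 319 and 165 to 295 in KO. The 295 was that of KO 18 h replicate 1, and KO replicates 2 and 3 gave 165 and 172 at 18 h.

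E23, 17.9 kb upstream of Tnf and 906 bp from the start site of the predicted gene Gm16181, ranked 8940 to 12923 in WT and 12308 to 14460 in KO at 0 h. At 1 h it ranked 1894 and 2352 in WT and 3278, 5574 and 4513 in KO, and the gain was 2.03 (p = 0.005 by exact permutation, 0.0302 after adjustment). By 18 h it had ranks of 8980 to 9636 in WT and 5024 to 11542 in KO, which overlapped those at 0 h in WT. E22, 16.9 kb upstream of Tnf, was weaker, at ranks 14302 to 19586 in the 1 h lists and outside the best 24389 in all 0 h lists (difference 0.57). Unlike E21, neither E22 nor E23 was called at 18 h, but the difference between the elements was not tested.

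**Figure D2:**
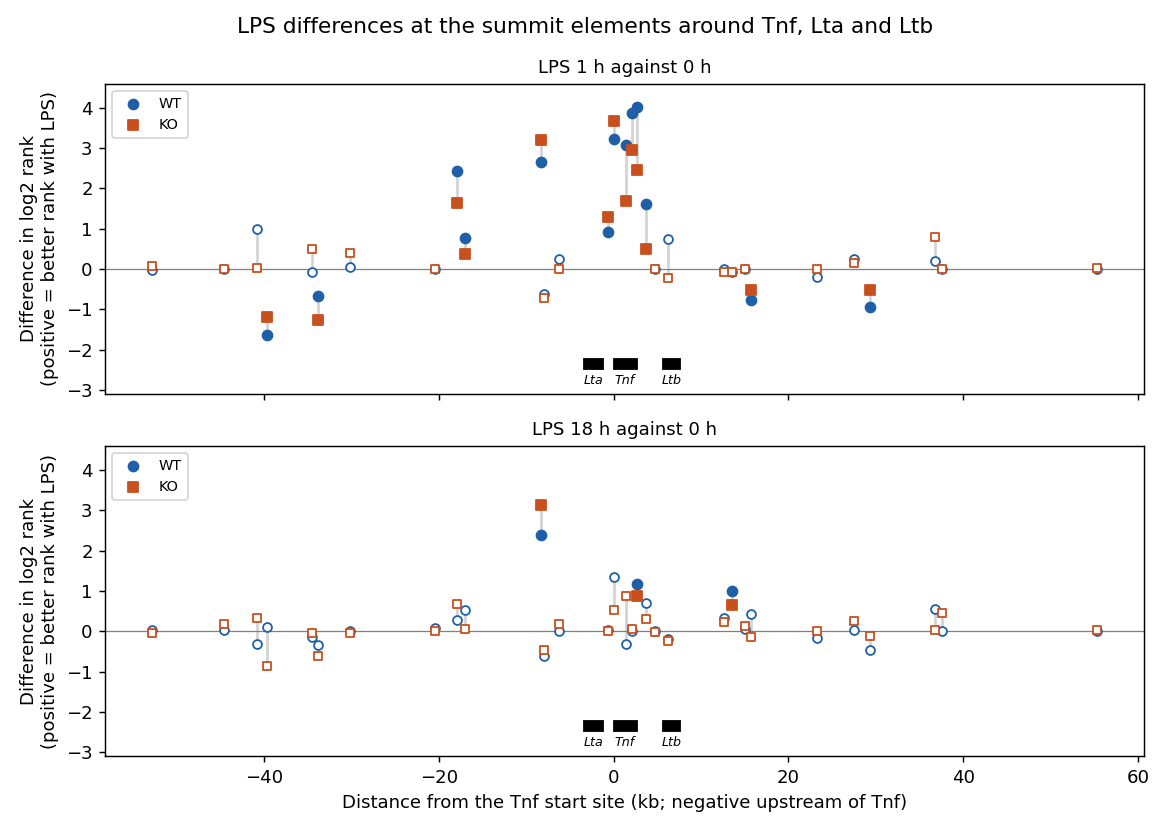
Difference in log2 rank at each of the 31 summit elements around Tnf, Lta and Ltb, for 1 h (top) and 18 h (bottom) against 0 h, by distance from the Tnf start site. Circles are WT and squares KO, filled where the element was called, and the black boxes are the 3 genes. The called gains at 1 h cluster over Tnf and at E21 to E23, and at 18 h the largest is E21.

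Ltb carried its peak, E11, in a coding exon 1159 bp from the nearest Ltb start site. It ranked between 5848 and 17260 in the 17 lists and was not called in any comparison. E12, between Ltb and Tnf, was among the best 24389 in 3 lists only. In the gap between Lta and E21, E19 and E20 were among the best 24389 in 3 and 6 lists and were not called. E20, which lies close beside E21, was present in 5 of 6 lists at 0 h, in none of 5 at 1 h and in 1 of 6 at 18 h, at ranks 9065 to 17164.

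Several elements at neighbouring genes in the Tnf window were called worse ranked at 1 h. Aif1, which encodes an actin-binding protein of macrophages, fell at its start site by 0.73 (E4). An intron of Lst1, a leukocyte gene, fell by 0.65 (E7). E26, 16 bp from a start site of Atp6v1g2, a proton pump subunit gene, and E28, 134 bp from one of Ddx39b, an RNA helicase gene, fell by 0.97 and 1.41 (exact permutation p = 0.005, adjusted p = 0.0302 for each of the 4). With reads over background in place of ranks, E28 was still called lower, and E4, E7 and E26 kept their direction but were not called. E26 also lost its call after adjustment for depth. Each of these 2 genes had another element near a start site that was not called, E27 (0.22, exact permutation p = 0.335) and E29 (0.51, exact permutation p = 0.235), and the merged sites at both genes were not called. The Lst1 promoter (E9) was instead better ranked at 18 h, by 0.82 against 0 h (adjusted p = 0.0378) and 0.90 against 1 h (adjusted p = 0.0417, exact permutation p = 0.005 for each). Both calls of E9 were lost with only the 10000 best peaks and on reads over background without centring, where the differences were 0.34 and 0.044. E3, in an exon of the predicted gene Gm17705 and 359 bp from the Prrc2a start site, had strong ranks of 155 to 2311 throughout and was not called.

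**Figure D3:**
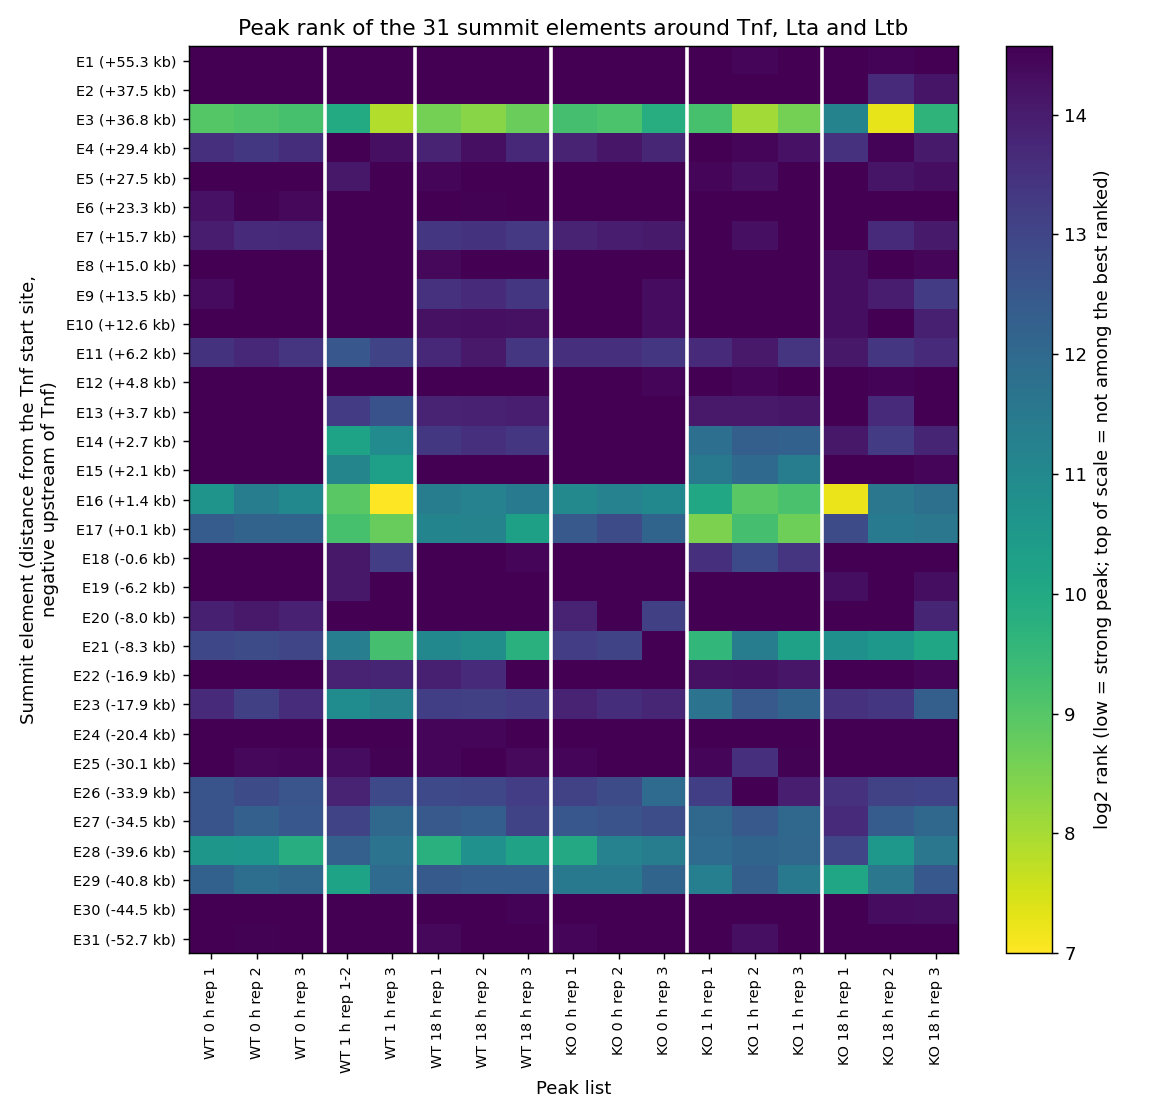
Log2 rank of the 31 summit elements around Tnf, Lta and Ltb (rows, by distance from the Tnf start site) in the 17 lists (columns, by group, white lines between groups). Yellow and green are strong peaks, and dark purple marks rank 24390. The block from E13 to E18 brightens in the 1 h lists of both genotypes, E21 stays bright at 18 h, and among the 18 h lists E16 is brightest in KO replicate 1.

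The Il6 window held little besides the promoter. E32, whose best summit lay 125 bp upstream of the start site beside the printed C/EBP match, gave a difference of 1.64 at 1 h (adjusted p = 0.0302) and 1.06 at 18 h (adjusted p = 0.0378, exact permutation p = 0.005 for each). E33, a second summit inside the gene 105 bp downstream of the start site, was among the best 24389 in 6 lists, none of them at 1 h. E34 was the only distal element, in an intergenic region 26930 bp downstream of the start site. It held an AP-1 match, was among the best 24389 in 4 lists, at ranks 16655 to 22252, and was not called. A further 5 regions of the Il6 window were found only below the matched number, in at most 9 lists each.

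Counted over both windows, 10 of 34 elements were called better ranked at 1 h against a background of 8.24% of all elements, and 4 worse ranked against 10.2%. The 10 include the 5 elements that were kept only through LPS lists, of which E14 was also counted at 18 h. At 18 h against 0 h, 4 were better ranked and 0 worse ranked, against 5.48% and 7.74%. At 18 h against 1 h, 1 was better ranked and 4 worse ranked, against 5.73% and 7.60%. The count for 18 h against 1 h became 3 better and 5 worse ranked without KO 18 h replicate 1, since E16, E7 (0.79 with and 0.91 without it) and E28 (1.03 and 1.36) were then called. E15 and E18 are among the worse ranked, and they were kept almost only through 1 h lists, so this count supports nothing about the windows. The median difference at 1 h was 0.16 over the 34 elements and −0.02 over all elements.

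The merged sites gave fewer calls. Tnf and its flanks, as far as the peak in Ltb, formed 1 site of 7803 bp that took in E13 to E18, and E22, E26 and E28 also fell into wider sites. At 1 h against 0 h, 4 of 17 sites were better ranked and 2 worse ranked, against a background of 9.42% and 11.0% of all sites. The worse-ranked calls were lost under other settings, which gave 11 and 0 on reads over background, centred or not, and 4 and 0 with the 10000 best peaks. The better-ranked sites at 1 h were the Tnf site, the sites of E21 and E23 and the Il6 promoter, and the worse-ranked ones were the Aif1 and Lst1 sites. At 18 h against 0 h, 2 sites were better ranked, those of E21 and the Il6 promoter, and 0 worse ranked, against 6.28% and 8.66%. At 18 h against 1 h no site was called in either direction, against 6.34% and 8.65%. By exact permutation, 3 of the 17 sites had an unadjusted p under 0.05 in that comparison (29.1% of all sites) and 0 an adjusted one, while limma called 3.

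The calls depend on how lists are scaled. Over all 34155 sites, 46.2% of the calls at 1 h and 42.0% of those at 18 h against 0 h were better ranked. With reads over background, centred on the sites shared by all lists, these shares were 84.0% and 86.5%, and the median site moved by 0.17 at each time. Without centring the share was 91.1% at 1 h but 5.82% at 18 h, with a median of −0.51. Relative to that median the Tnf promoter, at −0.24, and the Il6 promoter, at 0.43, still lay above the typical site at 18 h. Among elements with 0 h lists in the best 24389, the gains of E16, E17, E21, E23 and E32 at 1 h were called under each of these scalings. When only the 10000 best peaks were kept, E4, E7, E13, E18 and E22 lost their call. At 18 h against 0 h, that setting left E21 alone called.

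KO and WT were not separated at any of the 17 merged sites (background 0.111% higher and 0.161% lower) or at any of the 34 elements (0.0823% and 0.142%). An unadjusted exact permutation p under 0.05 was found at 0 of the 17 sites, against 6.98% of all sites, and at 4 of the 34 elements, against 6.47% of all elements. None passed after adjustment, and limma called none in the windows. All 4 were worse ranked in KO, namely E13 (−0.50, p = 0.02), E14 (−0.62, p = 0.02), E22 (−0.29, p = 0.015) and E28 (−0.68, p = 0.0468), each by exact permutation, with adjusted p of 0.558 to 0.718. Without KO 18 h replicate 1 the value at E28 was −0.47. At E13 and E14 the difference was largest at 1 h, at −1.11 and −1.56, when only 2 WT lists were available, and neither was in the best 24389 of any list at 0 h. The LPS response differed between genotypes at none of the 34 elements by an unadjusted exact permutation p under 0.05, either at 1 h (background 3.15%) or at 18 h (3.27%). E13, E14, E15, E18 and E22 were at rank 24390 in every 0 h list, and so were E1, E2, E5, E8, E19, E24 and E30. For all of these the exact permutation test could not go below p = 0.1 at 1 h or at 18 h, so it says nothing about them. At 1 h that value was reached at E13, E14, E15 and E22.

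The number of peaks in the windows changed less than the ranks. The Tnf window held 11.0 ± 1.0 (SD, n = 3), 10.5 ± 2.1 (n = 2) and 13.0 ± 1.0 (n = 3) of the best 24389 peaks in WT at 0, 1 and 18 h. In KO it held 11.0 ± 2.0, 11.3 ± 4.0 and 16.3 ± 2.3 (n = 3 each). The gain of 3.67 peaks at 18 h against 0 h had an exact permutation p of 0.01 and an adjusted p of 0.08 over 8 tests. The Il6 window held 1 to 3 peaks in each list.

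Promoters of genes that act with these cytokines also moved. Of 24 genes of the TNF pathway, each with a promoter peak, 9 were better ranked at 1 h and 2 worse ranked, against the 3.31% given above and 15.0% of the 11182 gene promoters. The median difference was 0.02 over the list and −0.29 over all promoters. Tnfaip2, a TNF-induced gene, gained 3.61. Tnfaip3, which encodes the ubiquitin-editing inhibitor A20, gained 2.88, and its partners Tnip3 and Tnip1 gained 1.27 and 0.92. The survival factors Birc3, Traf1 and Cflar gained 2.93, 1.12 and 0.51, the TNF receptor gene Tnfrsf1b gained 1.08 and the kinase gene Map3k7 gained 1.07. Ltbr, the receptor for the lymphotoxins, fell by 0.72 and the kinase gene Map3k8 fell by 0.84, which on reads over background without centring was −0.28 and not called. Each had an exact permutation p of 0.005 (adjusted p = 0.032) except Traf1, which is given no p, and Cflar, at 0.01 (adjusted p = 0.0467), which was not called after adjustment for depth. The geometric mean rank of Traf1 at 0 h was 24390 in both genotypes. It was therefore kept only through LPS lists and its difference from 0 h could not be negative, although it is counted among the 9.

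At 18 h, 3 TNF pathway promoters were still better ranked than at 0 h (2.48% of all promoters) and 0 worse ranked (8.12%). They were Birc3 (2.71) and Cflar (1.01), with an adjusted exact permutation p of 0.0472 each, and Traf1 (1.04). Traf1 was kept only through LPS lists, so its difference could not be negative and is given with no p. On reads over background without centring, Traf1 (0.52) and Cflar (0.00034) were no longer called. Against 1 h, Tnfaip2 (−3.31), Tnfaip3 (−2.91), Map3k7 (−1.58) and Tnip3 (−1.33) were worse ranked (background 4.75%) and the receptor gene Tnfrsf14 was better ranked, by 0.72 (5.22%), which on reads over background was 0.62 and not called with centring and turned to −0.18 without. For these 5 the exact permutation p was 0.005 and the adjusted p 0.0575, above 0.05. Tnfaip2 was also among the 5 promoters outside the windows whose ranks followed Tnf most closely over the 17 lists (Pearson r = 0.931), with Gpr84, Cd40, Arhgdib and Pde4b (0.930 to 0.953). For Il6 they were Fyb, Ccl4, H2-Q7, Polm and Dusp2 (0.864 to 0.923). These correlations describe lists that share depth and LPS time.

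Of 18 genes of the IL-6 pathway, 17 had a promoter peak. At 1 h, 4 were better ranked (3.31% of all promoters) and 1 worse ranked (15.0%), with a median of −0.09 against −0.29 over all promoters. Socs3, the feedback inhibitor of IL-6 receptor signalling, gained 4.0 (geometric mean rank 12731 to 670 in WT and 11854 to 878 in KO). Jak2 and Clcf1 gained 0.96 and 0.65 (exact permutation p = 0.005, adjusted p = 0.032 for each, as for Socs3). Il27, also counted among the 4, gained 0.48. Its geometric mean rank was 24390 in both genotypes at 0 h and at 18 h, so it was kept only through 1 h lists. Its direction was therefore fixed and it is given no p. Pias3, an inhibitor of STAT3, fell by 1.07 (exact permutation p = 0.015, adjusted p = 0.0594). Jak2, Clcf1 and Pias3 were not called after adjustment for depth, nor Pias3 on reads over background without centring (−0.50). At 18 h Socs3 was 2.20 better ranked than at 0 h, which on reads over background without centring was 0.72 and not called, and Cebpd, a C/EBP factor induced by inflammation, was worse ranked (difference −1.62, exact permutation p = 0.005 and adjusted p = 0.0472 for each). These were 1 call in each direction, against 2.48% and 8.12% of all promoters. Against 1 h, 0 were better ranked (5.22%) and 2 worse ranked (4.75%). They were Socs3 (−1.80, exact permutation p = 0.005, adjusted p = 0.0575) and Il27 (−0.48), which could not rank better than at 1 h and is given no p. Il27 was not called on reads over background, centred (−0.46) or not (−1.26).

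All 9 genes whose products control the decay of Tnf and Il6 mRNA had promoter peaks. At 1 h, 0 were better ranked (3.31% of all promoters) and 2 worse ranked (15.0%), with a median of −0.43 against −0.29 over all promoters. The 2 were members of the Zfp36 family of mRNA-destabilising proteins. Zfp36l2 went from a geometric mean rank of 631 to 7989 in WT and from 666 to 6830 in KO, a difference of −3.51, and Zfp36l1 fell by 0.59 (exact permutation p = 0.005, adjusted p = 0.032 for each). On reads over background without centring Zfp36l1 was at −0.16 and not called. At 18 h Zfp36l1 was also worse ranked than at 0 h (difference −2.08, exact permutation p = 0.005, adjusted p = 0.0472) and than at 1 h (−1.49, exact permutation p = 0.005, adjusted p = 0.0575). Elavl1, which encodes an mRNA-stabilising protein, was better ranked at 18 h than at 1 h by 0.92 (exact permutation p = 0.01, adjusted p = 0.0858). It was not called after adjustment for depth (0.77) and turned to −0.46 on reads over background without centring. Between KO and WT no promoter of the 3 lists was called (background 0.0984% higher and 0.152% lower). Reads over background without centring turned the counts at 18 h against 0 h to 1 higher and 8 lower in the TNF pathway, 0 and 5 in the IL-6 pathway and 0 and 5 in the decay list. Those at 18 h against 1 h became 0 and 10, 0 and 7, and 0 and 5.

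**Figure D4:**
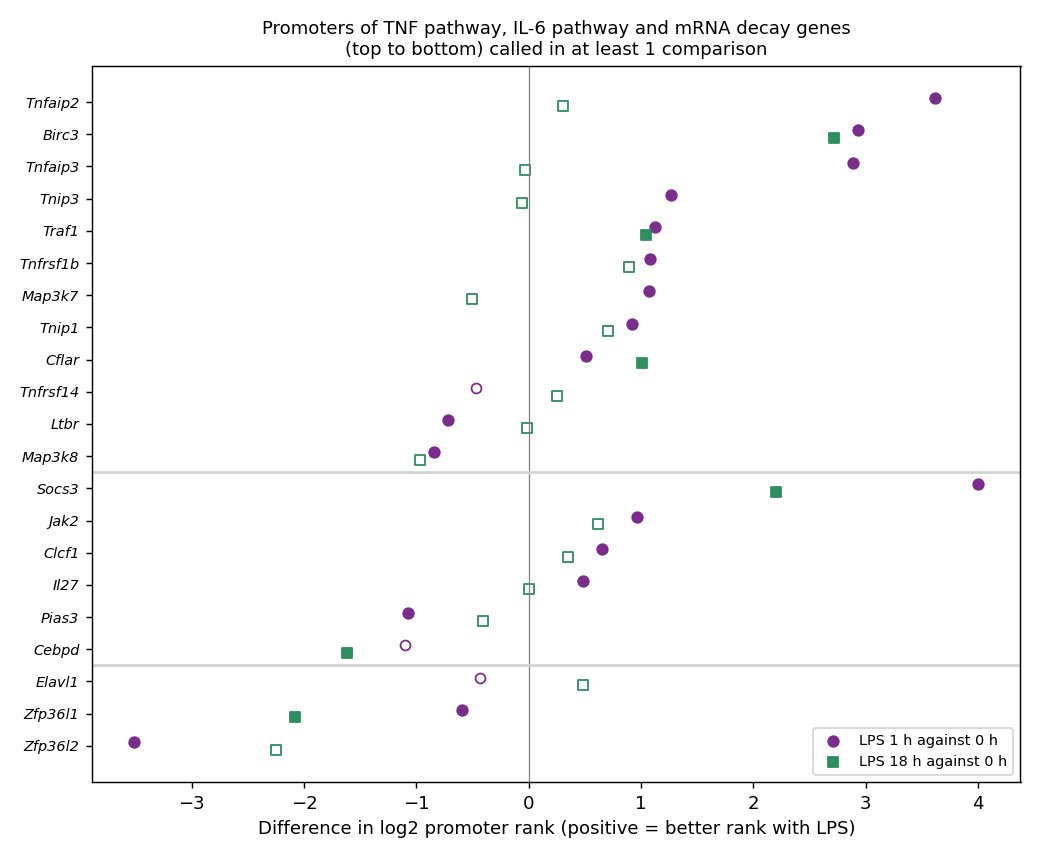
Difference in log2 promoter rank at 1 h (circles) and 18 h (squares) against 0 h for the genes of the TNF pathway, IL-6 pathway and mRNA decay lists that were called in at least 1 comparison, filled where called. Socs3 and Tnfaip2 lie furthest to the right at 1 h and Zfp36l2 furthest to the left.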

How the data were processed

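ATAC-seq peak lists of 17 samples were analysed. Per the study's methods and the labels, the authors trimmed reads with cutadapt 2.6, mapped them to mm10 and called peaks in each sample with the snakeATAC pipeline at a q-value threshold of 0.001. The version of the peak caller is not given in the sources used here. In the deposited lists the score is an integer made from the q-value, the fold column is a ratio of summit pileup to background, and the p-value and q-value columns are −log10 values. All depend on depth and were used inside a list only. DiffBind 3.0.15, named in the processing notes, was not rerun.

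Within a list, peaks were put in order of their −log10 p-value. The first 24389 (the length of the shortest list) were merged where they overlapped by 1 bp, keeping sites in at least 2 lists. Summits up to 150 bp apart formed summit elements. Annotation was GENCODE vM21. The background level was recovered from the deposited fold and p-value columns, which fixed whole reads for 100% of entries, and background reads per kb gave a depth index (0.382 to 9.75). Python 3.11.15 with scipy 1.17.1 ran the exact permutation tests, and R 4.3.3 with limma 3.58.1 was an alternative. The functions were tested on simulated data. The p-values measure the spread between lists, which may be technical in part. The cytokine genes, the pathway lists and the tests were chosen with earlier results of these data known. Values were given in full for the 4 genes and for called elements, up to 12 in each comparison. The sequence of 1 element is not reported here.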

Additional observations from a re-analysis of the deposited data

How the results depend on the processing

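The counts of called sites (main values 6, 2, 0 and 0 for 1 h against 0 h, 18 h against 0 h, 18 h against 1 h and KO against WT) depended on how a site was defined. Summit elements gave 14, 4, 5 and 0. When a peak had to cover at least 50% of the site the counts were 1, 0 and 1 for the LPS comparisons. Centred reads over background gave 11, 9, 1 and 1, and without centring, a setting chosen after seeing the data, 11, 3 (1 better and 2 worse ranked, against 2 and 0), 4 and 0. The 10000 best peaks gave 1 for 18 h against 0 h. For 18 h against 1 h, adjustment for depth gave 1 and limma 3. Leaving out a list gave 6, 2 to 3, 0 to 2 and 0. The count for 18 h against 1 h was 2 without KO 1 h replicate 2 or KO 18 h replicate 1, and 1 without KO 18 h replicate 3. Sites whose LPS response differed between genotypes (unadjusted, main value 0 at both times) numbered 3 at 1 h and 1 at 18 h with all deposited peaks, 1 at both times with centred reads over background, 1 at 1 h after adjustment for depth, and 0 to 1 without a list, the 1 arising at 1 h when WT 1 h replicate 3 was left out and at 18 h when WT 18 h replicate 3 was. The cause was not tested.

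Replicate numbers did not pair the lists, since the correlations of deviations between lists of the same number ran from −0.226 to 0.156 over all pairs. With the replicate block the count for 18 h against 1 h was 3. The block gave promoter differences of 3.60 (Tnf, 1 h against 0 h, p = 0.125), 0.93 (Tnf, 18 h against 0 h, p = 0.0625), −2.75 (Tnf, 18 h against 1 h, p = 0.125) and 1.76 (Il6, 1 h against 0 h, p = 0.125) by exact sign flips. With 4 pairs the smallest p is 0.125, so that test could not pass the threshold. The block could not be fitted to the genotype difference in LPS response at 1 h, where 1 pair remained, and was not run at 18 h, where 3 pairs cannot reach 0.05.

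Of the other promoter results, centred reads over background gave −0.19 for Tnf in KO against WT (exact permutation p = 0.0478). Without centring, the Tnf difference at 18 h against 0 h turned to −0.24, the Il6 difference in KO against WT to 0.031 (exact permutation p = 0.825) and the Il6 difference at 18 h against 1 h was −1.14 (exact permutation p = 0.005). The Il6 difference at 18 h against 0 h was 0.32 with the 10000 best peaks. Without a list, the 1 h differences ran from 3.34 to 3.57 (Tnf) and from 1.37 to 1.85 (Il6), those at 18 h against 0 h from 0.78 to 1.15 and from 0.95 to 1.20, those at 18 h against 1 h from −2.67 to −2.30 and from −0.75 to −0.26, and those of KO against WT from −0.47 to −0.24 and from −0.28 to 0.048, the last without WT 1 h replicate 3. The gain of peaks in the Tnf window was 3.35 at 18 h against 0 h and 5.35 against 1 h after adjustment for depth, and that in the Il6 window at 1 h was 1.0 with the 10000 best peaks (adjusted exact permutation p = 0.04 for each). Over the alternatives for the called elements, 351 values kept the call, 21 lost it and none turned the direction. Of the 351, 257 came from leaving out a list. That step cannot undo a call, so these 257 say nothing about how firm the calls are. Depth limits single values, since the Tnf promoter summit held 25 reads in WT 1 h replicate 1-2 and 328 in WT 0 h replicate 3.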
